A study of Mus musculus with 72 samples.

Results

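Respiratory complex I, the NADH:ubiquinone oxidoreductase of the mitochondrial inner membrane, was followed gene by gene in skeletal muscle and brain of mice. Its members were taken as every row of the muscle and brain expression tables whose symbol starts with Nduf or is ND1, ND2, ND3, ND4, ND4L, ND5 or ND6. This gave 58 of 13543 genes in muscle and 57 of 15431 genes in brain, the difference being Ndufa11b, and all of them passed the filter on low counts that left 13505 and 15400 genes. They comprised 7 nuclear core subunits, 9 accessory subunits of the matrix arm, 19 of the membrane arm, 1 accessory subunit found in both arms, 8 Ndufaf assembly factors, 7 mitochondrially encoded core subunits, 5 paralogues or pseudogenes, and Ndufa4 and Ndufa4l2, which carry the name but are not complex I subunits.

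Complex I takes electrons from NADH through a flavin and a chain of iron-sulfur clusters in its matrix arm, hands them to ubiquinone, and couples this to proton pumping in its membrane arm. The core that does this chemistry is encoded partly in the nucleus and partly in mitochondrial DNA, and is wrapped in accessory subunits that hold the complex together. Assembly factors help modules of the complex to form and are absent from the finished enzyme. Skeletal muscle and brain both depend on it heavily, and its defects cause muscle and brain disease.

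Mice were heterozygous for the Klotho allele Kl tm1Lex on a B6;129S5 background (KlHET) or were wild type from internal breeding (WT), and were 2 months old. Neuromuscular electrical stimulation (NMES) was given through the skin of both hind legs at 9 mA under 2.5% isoflurane, in 5 sessions with 2 sets per leg and 10 stimulations per set. Control mice had the anaesthetic alone, for 15 min per session. Muscle, which pooled the tibialis anterior with the extensor digitorum longus, and brain, which its label does not specify further and which was prefrontal cortex by the methods, were collected 24 h after the final session. For each tissue there were 12 KlHET NMES, 12 KlHET control, 6 WT NMES and 6 WT control libraries, 1 per mouse, from the same 36 mice. The study's own account counts fewer KlHET control mice than are labelled, and all labelled libraries were used. Animal identifiers of KlHET and WT mice begin with different letters, which the sources used here do not explain, so genotype and whatever these letters stand for cannot be told apart.

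Depth ran from 14.8 to 24.5 M reads in muscle and from 17.0 to 28.0 M in brain. The muscle library KlHET NMES 9 stood apart, with 6.39% of its reads from the mitochondrial genome, where the other muscle libraries had 18.6% (WT control 3) to 33.6%, and so did the brain library WT control 1, at 1.67% against 2.69% to 5.65%. In brain, Kl itself did not separate the genotypes: its lowest, median and highest values were 1.11, 2.79 and 29.1 scaled CPM (counts per 1e6 reads, divided by a library factor) in KlHET mice and 1.33, 3.41 and 7.39 in WT mice (log2 difference 0.17, adjusted p = 0.905). Kl has no value in muscle here, so the genotype labels could not be checked against it in that tissue. Markers of the choroid plexus, a tissue known for high Kl, summed to between 2.12 and 1764 scaled CPM in KlHET brains and between 2.88 and 115 in WT brains. In muscle, all 6 skeletal muscle markers were present (61701 to 118124 scaled CPM in KlHET and 67343 to 89586 in WT libraries). Of the 5 listed neuronal markers, Syt1, Rbfox3 and Gad1 were not in the muscle table, and muscle values of Snap25 and Slc17a7 are not given here. All 5 neuronal markers were measured in brain, where they summed to between 3657 and 8172 scaled CPM in KlHET and between 6071 and 8266 in WT libraries.

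The 4 promoters below are those of the nuclear members with the smallest p-values between genotypes in muscle, and are shown because these genes are described below. Each is the 100 bases before the start used for the RefSeq promoter windows, on GRCm38.p6, on the strand of the gene, with a match to the NRF1 motif in capitals. NRF1 is a transcription factor known for its sites in promoters of respiratory chain genes. Ndufa6 lies at chr15:82354292-82354391 on the minus strand, Ndufb2 at chr6:39592465-39592564, Ndufa11 at chr17:56717662-56717761 and Ndufs7 at chr10:80249349-80249448, these on the plus strand. The stretch of Ndufs7 lies inside its annotated span, which begins at 80249105, and the others end next to theirs.
Ndufa6: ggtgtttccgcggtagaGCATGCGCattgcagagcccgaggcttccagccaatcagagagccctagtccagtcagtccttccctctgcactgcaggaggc
Ndufb2: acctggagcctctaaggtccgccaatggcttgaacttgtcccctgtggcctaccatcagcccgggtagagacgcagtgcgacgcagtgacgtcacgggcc
Ndufa11: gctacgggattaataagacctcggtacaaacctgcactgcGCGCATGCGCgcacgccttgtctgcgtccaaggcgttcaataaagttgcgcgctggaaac
Ndufs7: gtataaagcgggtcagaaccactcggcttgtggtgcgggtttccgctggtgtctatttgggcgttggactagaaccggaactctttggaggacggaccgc
Over the longer window of 250 bases before to 50 after the start, 39 of the subunit and assembly factor genes had a promoter, and each was searched on both strands for exact letters. The NRF1 core GCGCATGC was in 5 of 39 (12.8%), namely Ndufa6, Ndufa8, Ndufa11, Ndufaf4 and Ndufaf5, and in 2.8% of all 27025 promoters. The YY1 core AAGATGGCG was in 6 (15.4%), namely Ndufa9, Ndufaf8, Ndufc1, Ndufs4, Ndufs6 and Ndufs7, and in 1.49% of all promoters. The ETS motif CCGGAAG bound by GABPA was in 6 (15.4%) and in 9.12% of all, and TCAAGGTCA, the motif of ERR alpha, in 0 and in 0.407%. The NRF1 core overlaps its own reverse complement, as in Ndufa11, where both strands match, and a match is a description of the sequence only.

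How strongly each class was expressed was compared within WT control mice on the scale of deposited CPM per kb of transcript, with muscle and brain set side by side and not tested, since their tables were normalized separately. All 36 nuclear subunits were higher in muscle, with a median ratio of muscle to brain of 3.65, each gene's ratio being the median over 6 mice, and a range of 1.68 for Ndufa8 to 6.06 for Ndufc1. The mitochondrially encoded genes differed more, with a median ratio of 6.88 (4.56 for ND5 to 8.98 for ND3). The assembly factors differed least, with a median of 1.67, and 3 of 8 were the lower in muscle. These were Ndufaf3 at 0.531 of its brain value, Ndufaf7 at 0.594 and Ndufaf2 at 0.743, the last of which came to 1.02 when only reads of nuclear genes were counted. Ndufaf6 had the highest ratio of the class, at 4.09.

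**Figure D1:**
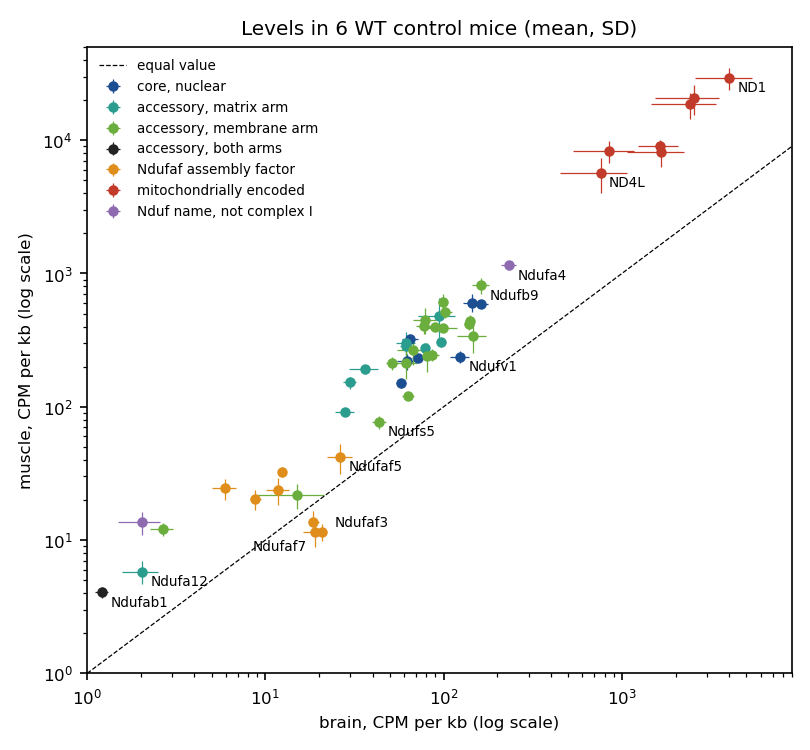
Mean CPM per kb of transcript in muscle (y axis) and brain (x axis) of 6 WT control mice for the 53 members with a transcript length, both axes on a log scale, with SD as bars and classes in colour. Mitochondrially encoded genes lie at the top right, nuclear subunits above the dashed line of equal value, and Ndufaf2, Ndufaf3 and Ndufaf7 below it.

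Within muscle, ND1, which forms the ubiquinone channel with the matrix arm, had the highest level per kb at 29323 ± 5376 CPM per kb (SD, n = 6), followed by ND4 at 20558 ± 5166 and ND2 at 18587 ± 4151. The difference between ND4 and ND2 was smaller than either SD, and ND4L was the lowest of the 7 at 5685 ± 1645. The highest nuclear subunit was Ndufb9, a membrane arm protein, at 819 ± 113 CPM per kb in muscle and 163 ± 18.3 in brain. Ndufs7, which carries the last iron-sulfur cluster before ubiquinone, led the nuclear core in muscle at 604 ± 93.6. Ndufs3 was the lowest of the nuclear core in both tissues, at 150 ± 10.3 in muscle and 57.9 ± 3.65 in brain. In the matrix arm Ndufa2 was highest in muscle (484 ± 169) and Ndufa7 in brain (97.1 ± 6.20), and Ndufa12 was lowest in both (5.81 ± 1.15 and 2.04 ± 0.466).

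The assembly factors were expressed at a lower level than nearly all subunits. Their highest member was Ndufaf5, an enzyme that modifies NDUFS7 in human cells, at 42.1 ± 10.6 CPM per kb in muscle and 26.4 ± 4.25 in brain. Their lowest was Ndufaf7 in muscle (11.4 ± 2.57) and Ndufaf6 in brain (5.95 ± 0.922). Some subunits were low beside a near copy with which reads can be shared, so these levels are uncertain: Ndufb4 averaged 11.7 ± 1.31 CPM in muscle, whereas its copies Ndufb4b and Ndufb4c averaged 158 ± 19.3 and 110 ± 8.76. Ndufs5 was likewise below its copy Ndufs5-ps in muscle (40.5 ± 4.60 and 82.7 ± 12.9 CPM). Reads can also be shared between Ndufs6 and Ndufs6b and between Ndufa11 and Ndufa11b. There the subunit was far above its copy in muscle (161 ± 23.5 against 4.51 ± 0.531 CPM, and 241 ± 27.0 against 1.46 ± 0.316 CPM). ND4 with ND4L and ND5 with ND6 overlap on the mitochondrial genome, and the sources used here do not say whether counting used strand.

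Muscle of KlHET mice was then compared with muscle of WT mice, within controls, within stimulated mice and over both. Complex I genes were lower in KlHET muscle, 35 of 58 members in controls, 39 after NMES and 50 over both, and 0 were higher, where 6%, 19.1% and 31.5% of all genes were called in either direction. After removal of the trend of transcript length described below, and of that of GC content, the counts were 15, 14 and 37. The shares of all genes above are from the fit without this removal, and those after it are not given here. Summed over the 36 nuclear subunits, libraries held 7645 ± 559 scaled CPM in KlHET controls and 9836 ± 627 in WT controls (SD, n = 12 and 6), which is 22.3% less. After NMES they held 8436 ± 818 scaled CPM in KlHET and 10403 ± 622 in WT mice, 18.9% less. In controls no KlHET library (6972 to 8766) reached the lowest WT library (9261 to 10929), and after NMES the ranges overlapped at one end (7128 to 9686 in KlHET, 9580 to 11449 in WT). As a share of reads, without the library factor, the differences of the means were -18.3% and -10.4%, and the ranges overlapped in both treatments (0.709% to 0.929% in KlHET and 0.899% to 1.19% in WT controls, 0.743% to 1.19% in KlHET NMES and 0.926% to 0.991% in WT NMES mice). Scaled CPM are CPM divided by the TMM factor of each library, and fold changes below are differences of log2(scaled CPM + 0.5), with a change called at an adjusted p under 0.05 by limma.

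The assembly factors summed to 215 ± 16 scaled CPM in KlHET controls and 265 ± 26.3 in WT controls, 18.6% less, and to 225 ± 28.7 in KlHET NMES and 284 ± 19.4 in WT NMES mice, 20.9% less. As a share of reads these differences were -14.7% and -12.6%. The 7 mitochondrially encoded genes together reached 92961 ± 12024 in KlHET controls and 102688 ± 25684 in WT controls, 9.47% less, with ranges that overlapped widely. This difference was -3.79% as a share of reads, and -16.8% without WT control 3, whose 57507 was the lowest of the WT controls. After NMES they reached 87898 ± 26278 in KlHET and 119199 ± 17653 in WT mice, 26.3% less, where the lowest KlHET value, 15502, was that of replicate 9, and without it the difference was -20.7%. These sums are descriptions and carry no test. In whole tissue, fewer cells rich in mitochondria and less RNA per cell cannot be told apart. How far the trend of transcript length between genotypes, described below, enters these sums was not tested.

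**Figure D2:**
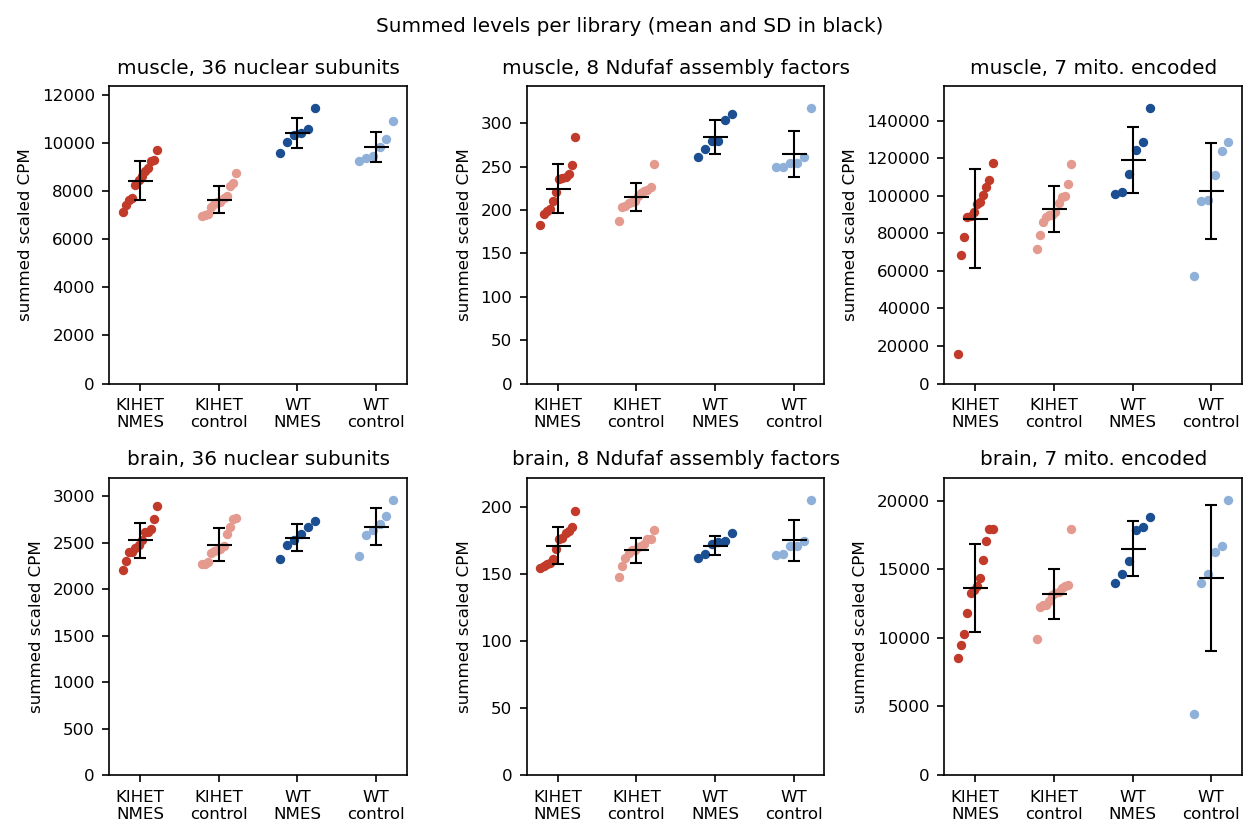
Summed scaled CPM per library (y axis, from 0) of nuclear subunits, Ndufaf assembly factors and mitochondrially encoded genes in muscle (top) and brain (bottom) of KlHET NMES, KlHET control, WT NMES and WT control mice, with mean and SD in black. For nuclear subunits in muscle the KlHET means are 8436 and 7645 against 10403 and 9836 in WT mice, the ranges after NMES overlap at one end, and the brain groups overlap.

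In controls, 35 of 58 members were lower in KlHET muscle and 0 were higher, where 6% of all genes tested were called, 2.59% higher and 3.41% lower. After NMES 39 were lower and 0 higher, where 19.1% of all genes were called, 9.26% higher and 9.87% lower. Over both treatments 50 were lower and 0 higher, where 31.5% were called, 16.1% higher and 15.4% lower, and all 58 fold changes were below 0. The median log2 difference of the members was -0.34 in controls, -0.37 after NMES and -0.37 over both, and that of all genes over both was 0.02. In controls the count rested partly on WT control 3, without which it was 19. These 3 comparisons share libraries and are not independent of each other. With scaling by total reads, which moved the median of all genes to 0.08, 0.14 and 0.11, the counts were 20, 21 and 38, all lower, with member medians of -0.27, -0.24 and -0.27. The shares of all genes called with this scaling are not given here.

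Over both treatments the calls reached every class. They took in 6 of 7 nuclear core subunits (median log2 difference -0.28), 8 of 9 matrix arm subunits (-0.41), 19 of 19 membrane arm subunits (-0.39), Ndufab1, the acyl carrier protein of both arms (-0.17), 8 of 8 assembly factors (-0.31), 2 of 7 mitochondrially encoded genes (-0.38), 5 of 5 paralogues or pseudogenes (-0.38) and Ndufa4. The 8 members not called were Ndufs1, Ndufa12, ND1, ND2, ND4, ND4L, ND5 and Ndufa4l2. In controls the counts of the same classes were 6, 8, 16, 0, 3, 0 and 1, with Ndufa4, and after NMES they were 5, 7, 14, 0, 5, 3 and 4, with Ndufa4.

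**Figure D3:**
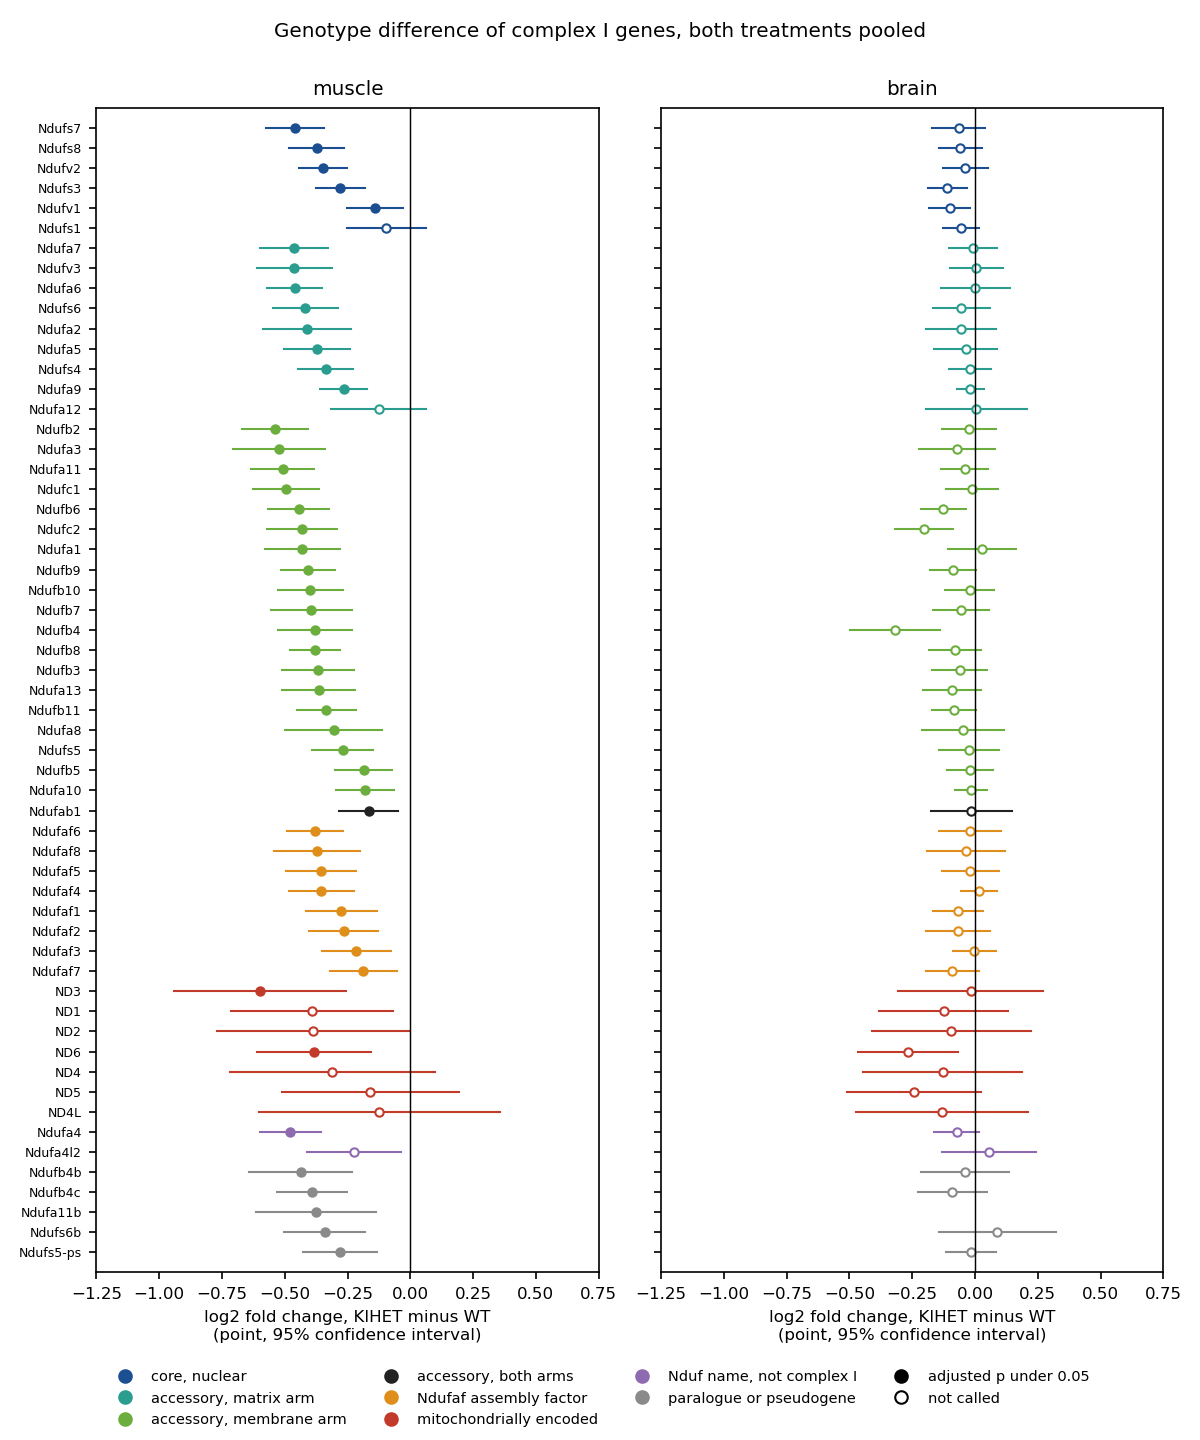
Log2 fold change of KlHET minus WT (x axis, point and 95% confidence interval) for the members shown (rows, by class) over both treatments in muscle (left) and brain (right), with filled points at an adjusted p under 0.05. In muscle most points are filled and all lie left of 0, and in brain 0 are filled.

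Among the nuclear core subunits, Ndufs7 showed the clearest difference. It ran from 305 through a median of 326 to 402 scaled CPM in KlHET controls and from 415 through 453 to 550 in WT controls, and from 315 through 371 to 469 in KlHET NMES and from 479 through 519 to 628 in WT NMES mice. No KlHET library reached the lowest WT library of its treatment on this scale, and the log2 difference over both was -0.46 ± 0.06 (SE, adjusted p = 8.96e-07). Ndufs8 (-0.37) and Ndufv2 (-0.35), which also hold iron-sulfur clusters, followed, and Ndufs3 (-0.28) differed less. Ndufv1 and Ndufs1 differed least. Ndufv1, which binds the flavin and NADH, lay 0.14 below WT (adjusted p = 0.0489, a call lost in 25 of 36 fits without 1 library). Its difference was -0.26 among controls, at an adjusted p of 0.0431, and -0.02 among stimulated mice, at an adjusted p of 0.863. Ndufs1, the largest core subunit, had 338, 525 and 875 scaled CPM in KlHET and 445, 601 and 662 in WT mice as lowest, median and highest, and its difference of -0.10 ± 0.08 was not called (adjusted p = 0.354).

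Of the matrix arm accessory subunits, Ndufa6, a small LYR protein that binds the acyl carrier protein, had the smallest p of any member. Its lowest, median and highest values were 79.5, 87.7 and 99.0 scaled CPM in KlHET controls and 106, 113 and 128 in WT controls. They were 65.1, 91.8 and 108 in KlHET NMES and 120, 129 and 149 in WT NMES mice. The groups were apart within each treatment, with a log2 difference of -0.46 ± 0.05 (adjusted p = 6.44e-07) over both. Ndufa7 and Ndufv3 differed as much (-0.46 each), Ndufs6 (-0.42), Ndufa2 (-0.41), Ndufa5 (-0.37) and Ndufs4 (-0.34), a subunit lost in a mouse model of Leigh syndrome, somewhat less. Ndufa9 differed by -0.26 and Ndufa12, at 3.06 to 8.22 scaled CPM in KlHET and 4.95 to 9.06 in WT mice, by -0.13 (adjusted p = 0.312).

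In the membrane arm every one of the 19 accessory subunits was called over both treatments. Ndufb2 had the largest difference, at 133, 171 and 229 scaled CPM in KlHET and 216, 251 and 299 in WT mice as lowest, median and highest, with a log2 difference of -0.54 ± 0.07 (adjusted p = 8.25e-07). Within each treatment its groups did not overlap. Ndufa11, at the junction of the membrane arm with partner complexes, had 140, 170 and 213 in KlHET controls and 223, 242 and 269 in WT controls, and differed by -0.51 ± 0.06 over both (adjusted p = 8.25e-07). Ndufb9 had 372, 418 and 518 in KlHET controls and 529, 563 and 666 in WT controls, and 392, 477 and 541 in KlHET NMES and 546, 601 and 696 in WT NMES mice. It too was apart in both treatments, with a difference of -0.41 ± 0.05 (adjusted p = 1.62e-06). Ndufb8, a subunit often blotted as a marker of complex I, differed by -0.38 ± 0.05 (adjusted p = 1.53e-06). At the small end stood Ndufa10 (-0.18) and Ndufb5 (-0.19).

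Groups of single libraries that do not overlap were counted as a second description. In controls 13 members lay in every KlHET library below every WT library, where 0.703% of all genes did and 0.163% lay above. Among these were Ndufs7, Ndufs8, Ndufv1, Ndufa6, Ndufa9, Ndufa11, Ndufa13, Ndufb2, Ndufb8, Ndufb9, Ndufc2 and Ndufa4. After NMES 11 members did, where 0.733% of all genes did and 0.304% lay above: Ndufs7, Ndufa6, Ndufb2, Ndufb6, Ndufb9, Ndufc1, Ndufaf5, Ndufaf6, Ndufb4b, Ndufb4c and Ndufa4. Over both treatments 0 members were apart, where 0.0296% of all genes lay below and 0.00740% above, and 0 members lay above WT in any of the 3 comparisons. These counts depended on the library factor. On CPM without it, 0 members were apart in controls, where 0.0815% of all genes lay below, and 3 after NMES, Ndufa4, Ndufa6 and Ndufb4b, where 0.118% did.

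The 8 assembly factors were all lower over both treatments, with log2 differences from -0.38 to -0.19. Ndufaf6 had 17.5, 22.2 and 25.9 scaled CPM in KlHET and 24.0, 28.8 and 34.3 in WT mice as lowest, median and highest (-0.38 ± 0.06, adjusted p = 7.33e-06). Ndufaf8, which works with Ndufaf5, differed by -0.37, Ndufaf5 by -0.36 and Ndufaf4, a factor for the module that binds ubiquinone, by -0.35. Ndufaf1, a member of the assembly complex of the membrane arm, differed by -0.27, Ndufaf2 by -0.26 and Ndufaf3 by -0.21. Ndufaf7, a methyltransferase, was lowest of the class in effect, with -0.19 ± 0.07 (adjusted p = 0.0266) and, without WT control 3, an adjusted p of 0.0657. Of 13 further assembly factors tested from a fixed list, 5 were lower and 0 higher, where 15.4% and 16.1% of all genes were: Tmem126a (-0.31), Ecsit (-0.28), Dmac1 (-0.23), Timmdc1 (-0.20) and Tmem70 (-0.17). The median of these 13 was -0.12.

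The mitochondrially encoded subunits varied more between libraries than the nuclear ones. ND3, a small subunit at the junction of the arms, had 1825, 2242 and 3002 scaled CPM in KlHET controls and 2105, 2721 and 3855 in WT controls. After NMES it had 405, 2201 and 3040 in KlHET and 2921, 3543 and 4646 in WT mice. Its groups overlapped in both treatments, and it was lower over both (log2 difference -0.60 ± 0.17, adjusted p = 0.00718) and after NMES (-0.86 ± 0.24, adjusted p = 0.0118). ND6, the one member encoded on the other strand of the mitochondrial genome, was lower over both (-0.38 ± 0.11, adjusted p = 0.00897), at 1541, 3865 and 5589 in KlHET and 3916, 4969 and 6437 in WT mice. With length and GC trends removed neither was called over both, with ND3 at -0.11 (adjusted p = 0.72) and ND6 turned to 0.039 (adjusted p = 0.862). After NMES, ND3 was then at -0.24 (adjusted p = 0.588), and it was not called with only the groups compared (adjusted p = 0.0782). ND1 was lower after NMES (-0.61 ± 0.22, adjusted p = 0.0499), a call held in 7 of 36 fits that each left out 1 library and lost with scaling by total reads (adjusted p = 0.0684) and with length and GC trends removed (-0.24, adjusted p = 0.565). It was not called over both (-0.39 ± 0.16, adjusted p = 0.0564).

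The antiporter-like subunits ND2 (-0.39, adjusted p = 0.114), ND4 (-0.31, adjusted p = 0.241) and ND5 (-0.16, adjusted p = 0.505), and ND4L (-0.12, adjusted p = 0.726), were not called over both treatments. In controls 0 of the 7 were called, with differences from -0.33 for ND3 to 0.19 for ND4L, and without WT control 3 all 7 were below 0, with a median of -0.29 in place of -0.17. Over both treatments ND1 was called without that library (-0.46, adjusted p = 0.0331). Without KlHET NMES 9, 44 members were called after NMES, ND4 among those added, and 53 over both, ND1, ND2 and Ndufa4l2 added. The class median over both was then -0.26, with ND3 at -0.49 (adjusted p = 5.6e-05), ND6 at -0.32 (adjusted p = 0.00278), ND1 at -0.29 (adjusted p = 0.00867) and ND2 at -0.26 (adjusted p = 0.0207). Of 6 other mitochondrial mRNAs, COX2 (-0.34) was lower over both and the median of the 6 was -0.33.

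Ndufa4, now counted as a subunit of cytochrome oxidase, had 459, 561 and 638 scaled CPM in KlHET controls and 669, 697 and 800 in WT controls, and 381, 540 and 676 in KlHET NMES and 722, 807 and 927 in WT NMES mice. It was apart between genotypes in both treatments, with a difference of -0.48 ± 0.06 over both (adjusted p = 1.07e-06). Complex II, which feeds electrons to the same ubiquinone pool and is encoded wholly in the nucleus, had 6 of 8 listed genes lower and 0 higher, with a median of -0.26, Sdhb among them (-0.34). Of 16 listed genes for expression of mitochondrial DNA, 4 were lower, Slirp (-0.47) the most, and 1 was higher, the DNA polymerase Polg (0.24). All genes tested were lower in 15.4% and higher in 16.1%, against which these lists are to be read. Of 7 regulators of mitochondrial biogenesis only Esrra (-0.20) was called, with a median of -0.03.

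Markers of other cell types were measured beside complex I, to be read against 16.1% of all genes higher and 15.4% lower over both treatments. Of 7 slow fibre markers 1, Atp2a2, was higher (median log2 difference 0.40, summed 111 to 1496 scaled CPM in KlHET and 88.3 to 429 in WT libraries), and 0 were lower. Of 6 adipocyte markers 1, Plin1, was higher (median 0.61, summed 232 to 563 in KlHET and 256 to 632 in WT libraries). The medians of 4 endothelial and 4 macrophage markers were 0.24 and 0.33 with 0 called. Of 6 general skeletal muscle markers Mylpf (-0.37) and Tnnt3 (-0.28) were lower. With scores of slow fibre and adipocyte markers as covariates, 38 members were called in controls, 35 after NMES and 46 over both, all lower. The shares of all genes called with these covariates are not given here, and whether cell composition accounts for the difference was not tested.

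Transcript length moved with genotype in muscle across all genes. Over both treatments, 61.8% of the 280 genes with a transcript under 750 bases were lower in KlHET mice (median log2 difference -0.30), 42.7% of those from 750 to under 1500 bases (-0.17), 15.7% of those from 1500 to under 3000 bases (-0.03) and 6.28% of those of 3000 bases or more (0.11). Most complex I genes have short transcripts. In the same bins 15 of 15, 11 of 12, 7 of 8 and 1 of 1 nuclear subunits were lower, with medians of -0.43, -0.35, -0.30 and -0.17, each below the median of all genes of that bin.

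**Figure D4:**
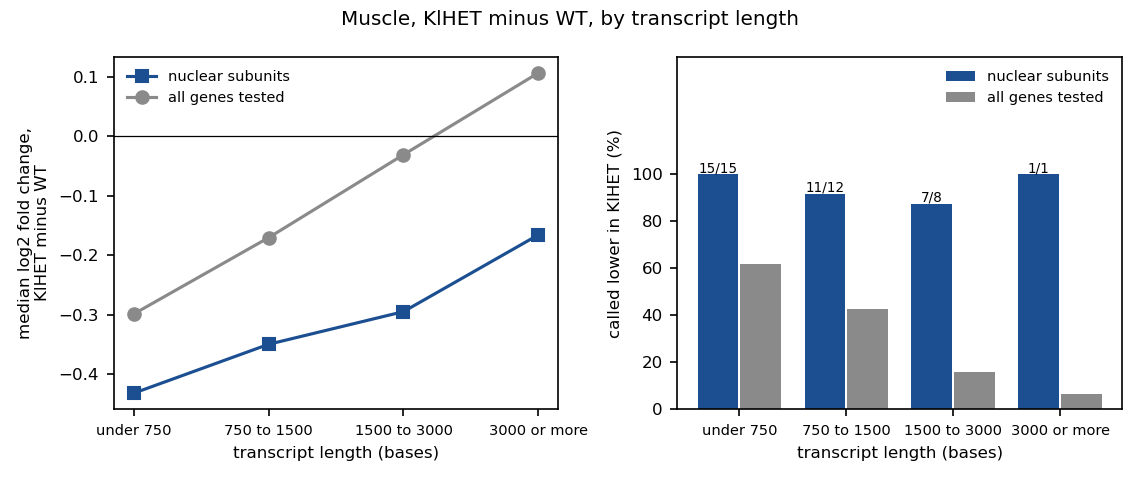
Median log2 fold change of KlHET minus WT in muscle over both treatments (left, y axis) and percent of genes lower in KlHET (right, y axis) by transcript length in bases (x axes), for nuclear subunits (blue) and all genes tested (grey). The subunits lie below all genes in each bin, with 15, 12, 8 and 1 subunits in the bins.

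Per library, short genes stood above long genes by a median of 0.31 after NMES and 0.18 in controls of WT mice, and below them in KlHET mice, by medians of -0.09 and -0.18, relative to all muscle libraries. After the trends of length and GC content were removed from each library, an alternative chosen after seeing the data, 15 members were lower in controls (median -0.21), 14 after NMES (-0.16) and 37 over both (-0.18), and 0 were higher. All of them were among the members called without this step. Over both treatments these were 5 of 7 nuclear core, 7 of 9 matrix arm and 14 of 19 membrane arm subunits, Ndufab1, 4 of 8 assembly factors, 0 of 7 mitochondrially encoded genes, Ndufa4, and the 5 paralogues or pseudogenes, for which no length was at hand and no correction was made. The share of all genes called after this removal is not given here, so these counts cannot be set against it. What the length trend reflects was not tested.

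NMES was compared with control within each genotype and over both. Over both genotypes 0 of 58 members were called in muscle, where 1.78% of all genes were, 1.27% higher and 0.511% lower. Of the members, 15 had an unadjusted p under 0.05, and 55 fold changes were above 0 with a median of 0.09. By transcript length, medians of all genes were 0.07 under 750 bases, 0.05 from 750 to under 1500, 0.01 from 1500 to under 3000 and -0.04 at 3000 or more. The nuclear subunits had 0.12, 0.10, 0.10 and 0.12 in these bins. Within KlHET and WT mice, all genes under 750 bases had medians of 0.04 and 0.08, and those of 3000 or more -0.03 and -0.04. Ndufb10, a membrane arm subunit, was nearest to the threshold, at 211, 280 and 349 scaled CPM in KlHET NMES, 200, 223 and 299 in KlHET control, 324, 358 and 404 in WT NMES and 292, 305 and 344 in WT control mice. It was above the control mean in 10 of 12 KlHET and 6 of 6 WT stimulated libraries, with a log2 difference of 0.23 ± 0.06 (adjusted p = 0.051). Ndufs3 was next (0.16, adjusted p = 0.0747). The lowest were Ndufa4l2 (-0.14, adjusted p = 0.429) and ND4L (-0.08, adjusted p = 0.898). DESeq2 and voom weights each called 3 members, Ndufb10, Ndufs3 and Ndufs7, with their shares of all genes called not given here.

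In KlHET muscle 1 member, Ndufv1, was higher after NMES, where 0.644% of all genes were called and 0.481% were higher. It had 330, 398 and 526 scaled CPM in KlHET NMES and 290, 342 and 370 in KlHET control mice, above the control mean in 11 of 12 stimulated libraries, with a log2 difference of 0.26 ± 0.06 (adjusted p = 0.0433). The groups overlapped, where 0.00740% of all genes lay wholly above control, and the call held in 19 of 36 fits that each left out 1 library (without KlHET NMES 9 the adjusted p was 0.0708). In WT mice Ndufv1 had 384, 409 and 443 after NMES and 373, 396 and 431 in controls, a difference of 0.03 (adjusted p = 0.944). Ndufa9 had the second smallest p in KlHET mice (0.21, adjusted p = 0.0596), and the median of all members was 0.09, with 17 at an unadjusted p under 0.05.

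In WT muscle 0 members were called, where 0.0148% of all genes were, with a median of 0.11. No member lay wholly above or below control, where 0.674% and 0.281% of all genes did. An unadjusted p under 0.05 was found for 5 members, the smallest for Ndufs3 (0.17, adjusted p = 0.527) and Ndufa6 (0.19, adjusted p = 0.534). The difference of the responses was tested as an interaction, and 0 members and 0% of all genes passed. DESeq2 and voom weights also called 0 members in WT muscle and 0 in the interaction. The 3 members with an unadjusted p under 0.05 were Ndufaf7 (0.32 ± 0.13, adjusted p = 1), Ndufv1 (0.23 ± 0.11, adjusted p = 1) and Ndufa9 (0.19 ± 0.09, adjusted p = 1). Ndufaf7 had 15.5, 17.8 and 28.4 scaled CPM in KlHET NMES and 13.5, 15.5 and 17.5 in KlHET control mice. In WT mice it had 16.3, 19.3 and 20.4 after NMES and 16.4, 19.9 and 25.9 in controls, so its ranges overlapped in both genotypes.

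The mitochondrially encoded genes had NMES differences from -0.39 to -0.04 in KlHET muscle (median -0.17) and from 0.10 to 0.33 in WT muscle (median 0.25), with 0 called. The negative signs in KlHET muscle rested on KlHET NMES 9: without it the differences ran from -0.10 for ND4L to 0.11 for ND2, with a median of 0.03 and 2 of 7 below 0. The values in WT muscle rested on WT control 3: without it they ran from -0.09 for ND5 to 0.24 for ND3, with a median of 0.09 and 2 of 7 below 0. The interaction ran from -0.64 to -0.14 (median -0.45), and had a median of -0.25 without KlHET NMES 9 and -0.33 without WT control 3, with 0 of 7 at an unadjusted p under 0.05 in any of these fits. Nuclear subunits had medians of 0.12 in KlHET and 0.09 in WT mice, and assembly factors of 0.08 and 0.13.

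**Figure D5:**
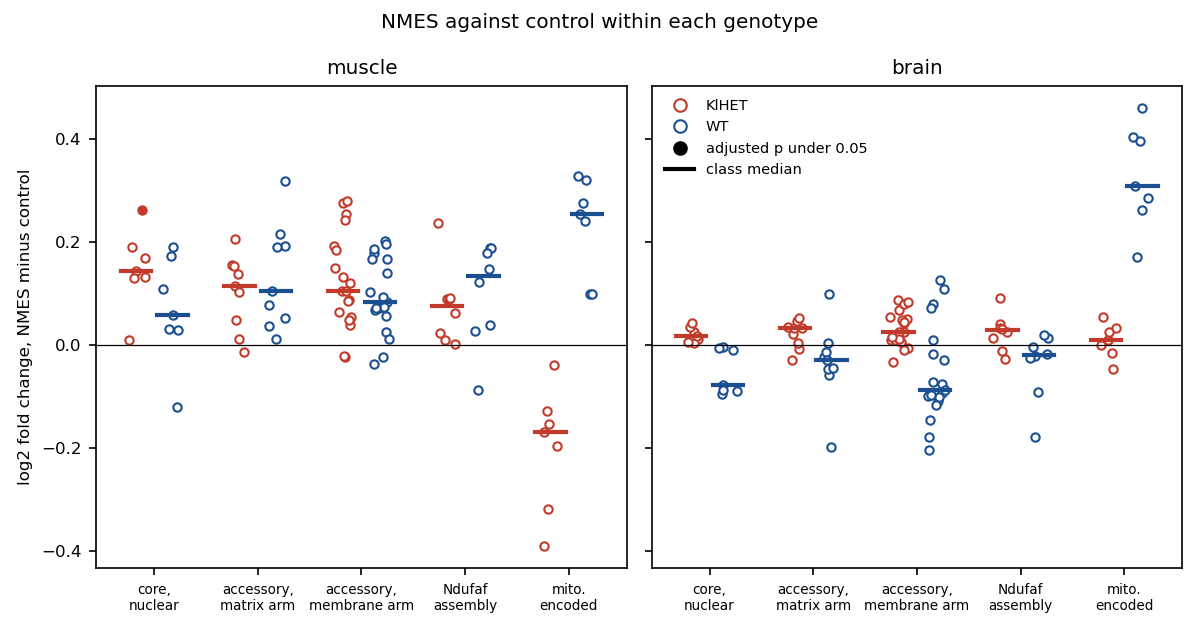
Log2 fold change of NMES minus control (y axis) for each subunit, assembly factor and mitochondrially encoded gene by class (x axis) in muscle (left) and brain (right), KlHET in red and WT in blue, with class medians as bars and adjusted p under 0.05 filled. One point, Ndufv1 in KlHET muscle at 0.26, is filled, and the mitochondrially encoded genes have muscle medians of -0.17 in KlHET (0.03 without KlHET NMES 9) and 0.25 in WT mice (0.09 without WT control 3).

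In brain, 0 complex I genes passed the test in any comparison of all 36 libraries. The nuclear subunits summed to 2525 ± 192 scaled CPM in KlHET NMES and 2554 ± 146 in WT NMES mice, and to 2478 ± 178 in KlHET controls and 2673 ± 202 in WT controls. Assembly factors summed to 171 ± 13.9 in KlHET NMES and 171 ± 6.92 in WT NMES mice, and to 168 ± 9.32 in KlHET controls and 175 ± 15.3 in WT controls. Between genotypes 0 of 57 members were called in controls, after NMES or over both, where 0.0714%, 0.0974% and 0.591% of all genes were, and 8, 4 and 7 members had an unadjusted p under 0.05. Over both treatments 50 of 57 fold changes were below 0, with a median of -0.05. Short genes in general also lay slightly below 0. Medians of all genes were -0.04 under 750 bases, -0.03 from 750 to under 1500, -0.01 from 1500 to under 3000 and 0.01 at 3000 or more. The nuclear subunits had -0.04, -0.06, -0.05 and -0.01 in these bins. Over both treatments DESeq2 called Ndufb4 and Ndufc2, and voom weights called these and ND6, with their shares of all genes called not given here.

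Ndufb4 came nearest, at 1.17, 2.04 and 2.91 scaled CPM in KlHET and 2.05, 2.51 and 4.63 in WT mice (-0.32 ± 0.09, adjusted p = 0.0988). It rested on 22 to 129 reads per library and shares sequence with Ndufb4b and Ndufb4c, which differed by -0.04 and -0.09. Ndufc2, a membrane arm subunit, had 63.6, 81.6 and 92.8 in KlHET and 77.5, 92.3 and 137 in WT mice (-0.20 ± 0.06, adjusted p = 0.102). Its value of 137 was that of WT control 1, the library of low mitochondrial share, and the next WT control had 102. The ranges of both genes overlapped. In controls Ndufc2 (-0.30, adjusted p = 0.194) and Ndufb6 (-0.21, adjusted p = 0.262) had the smallest p, and after NMES Ndufb4 (-0.39, adjusted p = 0.596) and ND6 (-0.32, adjusted p = 1). Ndufa1 (0.07, adjusted p = 0.813) and ND3 (0.14, adjusted p = 0.826, and -0.18 without WT control 1) in controls and Ndufaf4 (0.11, adjusted p = 1) and Ndufs6b (0.28, adjusted p = 1) after NMES led in the other direction.

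ND6 was the lowest of the mitochondrially encoded genes over both treatments in brain, with a log2 difference of -0.27 ± 0.10 (adjusted p = 0.284), at 501, 722 and 1027 scaled CPM in KlHET and 475, 893 and 1122 in WT mice. ND5 followed (-0.24, adjusted p = 0.55), at 1762, 2612 and 3779 in KlHET and 994, 3253 and 4083 in WT mice, where 994 was WT control 1. The other 5 lay between -0.13 and -0.02. The genotypes overlapped for all 7. These values depended on WT control 1: without it the class median over both treatments was -0.31, and ND5 was lower in KlHET brain (-0.39, adjusted p = 0.0386). ND6 then had -0.35 (adjusted p = 0.0533), ND4L -0.34 (adjusted p = 0.164) and ND3 -0.17 (adjusted p = 0.587).

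After NMES 0 of 57 members were called in brain in either genotype, over both or as an interaction, where 0% of all genes were in each, and 1, 1, 0 and 1 members had an unadjusted p under 0.05 in KlHET, WT, both and the interaction. DESeq2 and voom weights called 0 members in each as well. Medians of the members were 0.02 in KlHET and -0.02 in WT mice. The mitochondrially encoded genes ran from -0.05 to 0.05 in KlHET brain and from 0.17 to 0.46 in WT brain, and without WT control 1 from -0.05 to 0.05 in WT brain (median 0.01). Ndufaf4, a factor of the ubiquinone module, had the smallest p of the interaction (0.18 ± 0.07, adjusted p = 0.999). It had 29.4, 33.0 and 35.6 scaled CPM in KlHET NMES and 27.6, 30.4 and 35.2 in KlHET control mice. In WT mice it had 27.7, 30.9 and 31.7 after NMES and 29.6, 32.0 and 35.1 in controls, with overlap in both genotypes. Whether the genotype difference itself differed between muscle and brain was not tested, since the tables were normalized separately.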

How the data were processed

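RNA of muscle and brain was sequenced, aligned to mm10 with Rsubread and annotated with org.Mm.eg.db by the authors, who deposited 1 table of CPM values per tissue (counts per 1e6 reads of the library). A deposited column of average log2 CPM, tied to the authors' own comparison, was not used. Every CPM value came out as a whole number of reads (100% within 1e-06), which gave the depth of each library; all 72 sample columns had a sample. Genes passing filterByExpr of edgeR 4.0.16 were scaled by TMM, and limma 3.58.1 (R 4.3.3) was fitted to log2(scaled CPM + 0.5) with 4 group means per tissue, trend and robust variances, and Benjamini-Hochberg adjustment over all genes of the tissue at 0.05. All tests were two-sided. The fit was tested on simulated data that held no trend of length, GC content or mitochondrial share between libraries, so that check does not bear on such trends.

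Alternatives were another scaling, filter or pseudocount, edgeR and DESeq2 1.42.0 on the recovered reads, voom weights, covariates, each library left out, and removal of length and GC trends (loess span 0.3), which 53 members with a length allowed. Values were given for the mitochondrially encoded genes, for members called in any comparison, for the 2 with the smallest p in a direction with fewer calls, and for the highest and lowest of each class per kb. One member enters the counts, sums and medians and is not reported here by itself. Members and lists were chosen with earlier results of these data known. Longer forms of the NRF1 and YY1 motifs were searched first and replaced by the cores given. Promoters were read from RefSeq (GRCm38.p6).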

Additional observations from a re-analysis of the deposited data

Results flagged for a closer look

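Of 54 values checked in groups of 6 libraries, 6 had a library far from the other 5, where chance flags about 1 in 20. In muscle, the assembly factors summed to 318 scaled CPM in WT control 3, against 261 in the next library. Ndufs7 had 628 scaled CPM in WT NMES 5 in muscle, against 530 in the next. In brain, WT control 1, the library of low mitochondrial share, was apart for 3 values: the assembly factors summed to 205 (next 174), Ndufc2 had 137 (next 102) and ND5 had 994 scaled CPM, below the next lowest at 2998. Ndufb4 had 4.63 scaled CPM in brain of WT NMES 2, against 2.98 in the next library.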

How the results depend on the processing

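The number of members called in muscle between KlHET and WT was 20 (controls) and 21 (NMES) with scaling by total reads, and 15 and 14 after removal of length and GC trends, which also turned ND6 to 0.084 after NMES and 0.039 over both treatments, and Ndufb3 to 0.0095 after NMES (log2). With 1 library left out it ran from 19 to 39 in controls, 30 to 44 after NMES and 48 to 53 over both. For NMES against control over both genotypes, 1 member was called with nuclear genes only for scaling, with Xist or Y-linked genes as a covariate, with slow fibre and adipocyte scores, and without KlHET NMES 9, 3 with DESeq2 and 3 with voom weights, and 0 to 2 with 1 library left out. Within KlHET, 0 were called with scaling by total reads, with only the groups compared, and without KlHET NMES 9, 2 with edgeR and with the Xist or Y-linked covariate, 5 with DESeq2 and with the fibre and adipocyte scores, 3 after removal of length and GC trends (Ndufb10, Ndufa13 and Ndufa9, with Ndufv1 lost at an adjusted p of 0.0553), and 0 to 4 with 1 library left out. In brain between genotypes over both treatments, DESeq2 called 2, voom weights 3, and the fit without WT control 1 called 1, with 0 to 1 over all fits that left out 1 library. The muscle to brain ratio over reads of nuclear genes was 4.94 for nuclear subunits and 2.33 for assembly factors. The cause of these shifts was not tested, and 172 other counts or ratios from alternatives that kept all libraries or left out 1 doubted library were within 1.5 times or the replicate spread of those reported. Many of these set 0 members called against 0, and ratios without division by length could not change, since length cancels. The number 172 is therefore no measure of how stable the results are. No paired analysis was possible because the groups tested against each other share no mice and replicate numbers were given in accession order. Muscle and brain came from the same mice, and their ratios were taken per mouse with no test. Shares of all genes called under the alternatives are not given here, so their counts of members have no such share to be read against. Low members such as Ndufb4 in brain rest on few reads.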
